A study of Mus musculus with 4 samples.

Results

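Internal gene body regions called in wild type (WT) only were taken from lists of accessible chromatin in sorted CD4+CD8+ double-positive (DP) thymocytes of C57BL/6 mice. They were the intervals of the WT list that overlapped the body of any annotated gene, lay over 1000 bp from every annotated gene end, and shared no base with the knockout (KO) list. They were thus selected on the absence of a KO call, a measured value, and that call is given only as a description. The rule found 2928 of the 15215 WT regions. The WT mice carried CHAF1bfloxp/floxp without Cre, and the KO mice carried the same floxed alleles with Cd4-cre, a transgene that drives Cre from Cd4 regulatory sequence in T lineage cells. Chaf1b encodes a subunit of chromatin assembly factor 1 (CAF-1), the chaperone that deposits new histones behind replication forks. The assay was ATAC-seq, which tags open DNA with a transposase, run on 50000 cells per library. The 4 samples formed 2 groups of 2 replicates, but the deposited lists combine the replicates of a group. There was therefore 1 list per group, no spread between replicates, and no test between the groups.

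Sites inside genes and away from their outer ends hold enhancers, silencers, binding sites of the insulator protein CTCF, and start sites of shorter transcripts. In thymocytes many enhancers of T cell genes lie in introns, where factors of the RUNX, ETS, TCF/LEF and E protein families bind. The gene table used here gives each gene's outermost start and end, so that a promoter of a shorter transcript counts as internal. Exons and introns could not be set apart.

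Some of the regions were such promoters. A RefSeq table of start windows, each holding 250 bases before and 50 after an annotated transcript start, had 4728 windows at starts inside genes. Of the 2928 regions, 255 overlapped such a window (8.71%, exact 95% interval 7.71 to 9.79), and in 227 of them the start itself lay in the region. They are shown first because they are the regions whose sequence can be printed. The sequences below are the bases before the internal start that lie in the called region, 5′ to 3′ along the gene, from assembly GRCm38.p6. They belong to 7 genes, those whose internal start region had the highest WT enrichment and held at least 100 such bases, and to Ccr4, next after Trp53bp1 among the genes of the lists described below by fold at such a region. Capitals mark matches to the motifs of 6 or more letters given further below.
Trp53bp1, chr2:121271408-121271634, minus strand: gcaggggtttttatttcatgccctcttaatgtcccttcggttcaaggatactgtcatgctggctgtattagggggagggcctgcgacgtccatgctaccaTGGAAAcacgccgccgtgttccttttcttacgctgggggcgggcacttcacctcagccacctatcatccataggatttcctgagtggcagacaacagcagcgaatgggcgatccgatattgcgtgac
Pak1, chr7:97842826-97842938, plus strand: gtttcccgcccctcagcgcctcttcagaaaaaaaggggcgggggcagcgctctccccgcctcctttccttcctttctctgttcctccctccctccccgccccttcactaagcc
Cntrl, chr2:35132019-35132215, plus strand: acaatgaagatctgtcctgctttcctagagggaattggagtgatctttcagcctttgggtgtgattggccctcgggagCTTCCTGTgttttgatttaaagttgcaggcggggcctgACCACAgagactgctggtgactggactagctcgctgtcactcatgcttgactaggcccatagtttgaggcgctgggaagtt
Nktr, chr9:121718931-121719180, plus strand: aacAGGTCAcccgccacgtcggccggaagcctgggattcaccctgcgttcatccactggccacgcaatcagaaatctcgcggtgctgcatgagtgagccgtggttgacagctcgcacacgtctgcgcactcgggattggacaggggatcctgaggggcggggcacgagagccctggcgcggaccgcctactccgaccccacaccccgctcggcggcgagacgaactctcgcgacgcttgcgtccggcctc
Limk2, chr11:3371405-3371654, minus strand: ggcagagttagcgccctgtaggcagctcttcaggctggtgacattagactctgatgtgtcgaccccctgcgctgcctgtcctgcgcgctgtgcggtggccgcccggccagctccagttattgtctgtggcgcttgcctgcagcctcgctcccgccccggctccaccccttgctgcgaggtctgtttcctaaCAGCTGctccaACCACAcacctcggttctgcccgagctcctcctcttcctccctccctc
Armcx6, chrX:134751420-134751595, minus strand: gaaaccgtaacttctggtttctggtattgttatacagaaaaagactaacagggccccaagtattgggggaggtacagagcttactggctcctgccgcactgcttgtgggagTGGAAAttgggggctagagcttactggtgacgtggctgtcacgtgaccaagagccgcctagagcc
Nrbp1, chr5:31240676-31240882, plus strand: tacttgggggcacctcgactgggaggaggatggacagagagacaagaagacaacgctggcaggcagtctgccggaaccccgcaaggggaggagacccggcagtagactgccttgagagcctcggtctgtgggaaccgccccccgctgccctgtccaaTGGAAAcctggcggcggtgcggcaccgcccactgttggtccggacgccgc
Ccr4, chr9:114496545-114496717, minus strand: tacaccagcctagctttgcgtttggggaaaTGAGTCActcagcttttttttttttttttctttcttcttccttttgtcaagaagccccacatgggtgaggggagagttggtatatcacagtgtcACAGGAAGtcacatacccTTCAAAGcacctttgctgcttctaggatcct

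Trp53bp1 encodes 53BP1, which steers repair of double-strand breaks toward end joining. Its internal start lay 24.9 kb from the outer 5′ end of the gene, and the WT region there had a fold enrichment of 11.8 with 35 reads at its summit. Fold enrichment is the authors' value, the reads over the summit plus 1 divided by the local background plus 1. The printed stretch held 12 CpG dinucleotides. The region at Pak1, a kinase activated by Rac and Cdc42, had a fold of 11.6 and 30 reads and lay 54.4 kb from the outer 5′ end. At Cntrl, which encodes a centrosomal protein, the fold was 11.4 with 26 reads, and the printed bases held an ETS and a RUNX match, both on the other strand. The region at Nktr, a cyclophilin-related gene, had a fold of 11.1 and 27 reads, with 29 CpG dinucleotides and 67.2% G and C in 250 bases. At Limk2, a kinase of the actin regulator cofilin, the fold was 10.7 with 30 reads, and the printed bases held an E-box match and a RUNX match, the latter on the other strand. Armcx6 on chromosome X (10.6, 27 reads) and Nrbp1 (10.6, 28 reads) held an NFAT match each. Ccr4 encodes a chemokine receptor of thymocytes under selection, and its stretch was the poorest in CpG of the 8, with 1 CpG and 43.9% G and C. It held an AP-1, an ETS and a TCF/LEF match, and its region had a fold of 9.85 with 25 reads. The KO list had no region at any of these starts, and the nearest KO region was 8.50 kb away at Nktr and 262 kb away at Pak1.

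At most of these regions the outer 5′ end of the gene was not called. The outer 5′ end had no region in either list for 205 of the 255 (80.4%). The same share over all genes with an internal start was not counted. Of all protein-coding genes over 10 kb, 58.3% had no region at either end, which is a stricter measure. For the 255 regions the other states of the outer 5′ end were as follows. It was called in both lists for 27, in WT only for 20 and in KO only for 3. Among the 276 internal start regions called in both lists the share with no region at the outer 5′ end was 79.7% (74.5 to 84.3), and the intervals overlapped. Limk2 was among the genes with an outer 5′ end called in both lists, and Jmjd1c (fold 9.15 at the internal start), Atxn7 (9.49) and Cntrl were among those with the outer end in WT only.

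Internal starts were more frequent among regions called in both lists, with 276 of 1724 (16.0%, 14.3 to 17.8) against the 8.71% in WT only. The regions in both lists also had the higher fold enrichment, so the share was taken within bands of WT fold enrichment. At folds of 5 to 6 it was 7.56% (6.01 to 9.35) of 1019 regions in WT only and 14.1% (9.85 to 19.3) of 227 in both lists. At folds of 8 to 10 it was 11.8% (7.78 to 16.9) of 212 and 19.1% (15.5 to 23.1) of 435. Outside the band of 5 to 6 the intervals overlapped in every band, and at 10 and above the order turned, with 11 of 40 regions in WT only (27.5%, 14.6 to 43.9) against 16.9% (13.4 to 20.8) of 415. These intervals cover counting error over regions of 1 list and are no test.

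**Figure D1:**
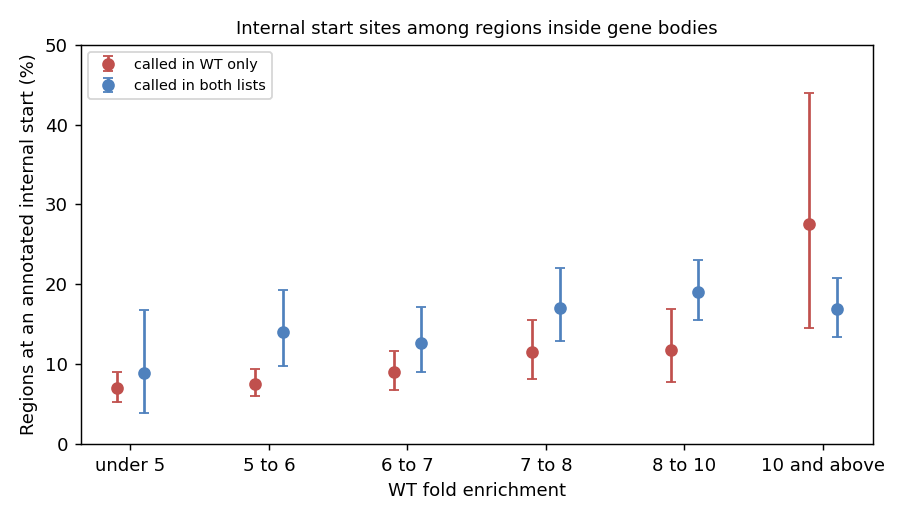
Share of WT regions inside gene bodies that overlap the window of an annotated internal start (y axis, percent), by WT fold enrichment (x axis), for regions called in WT only and in both lists; bars are exact 95% intervals. The share in WT only is the lower in each band below 10, clear of the other interval only at 5 to 6, and reaches 27.5% at 10 and above.

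The windows at accessible internal starts were rich in G and C. The 289 windows at regions in WT only had a median of 61.7% G and C and 21 CpG dinucleotides, and the 326 at regions in both lists had 61.2% and 21. The 4058 internal start windows with no WT region had 50.3% and 5. Motifs were searched as exact letters on both strands, without regard to overlaps between motifs. The ETS motif CCGGAAGT, the form common in promoters, was in 26 of the 289 windows in WT only (5.96 to 12.9%), 9.51% (6.55 to 13.2) in both lists, 1.23% (0.916 to 1.62) with no WT region and 3.89% of all 32851 start windows. A core of the CTCF motif, CC, any 3 bases and AGGGGGC, was in 3.11% (1.43 to 5.83), 2.45% (1.07 to 4.78), 0.764% (0.520 to 1.08) and 1.28%. A second ETS form, ACAGGAAG, was in 5.54% (3.20 to 8.84) of the windows in WT only and 5.83% of those in both lists. It was in 3.58% of all windows, a share within the WT-only interval. For the other motifs the share in WT only was the lower, and its interval lay below the share of all windows for GATA, NFAT, MYB, AP-1 and ROR but included it for RUNX, the E-box, TCF/LEF and Ikaros. The motif AGATAA of GATA factors was in 6.23% against 11.2%, NFAT (TGGAAA) in 12.8% against 21.4% and MYB (AACTG) in 33.2% against 44.8%. RUNX (TGTGGT) was in 12.5% against 16.8%, the E-box CAGCTG in 12.8% against 16.3%, TCF/LEF (CTTTGAA) in 4.15% against 5.14%, AP-1 (TGANTCA) in 4.15% against 7.81%, ROR (AGGTCA) in 11.4% against 16.3% and Ikaros (TTGGGAA) in 3.46% against 5.61%. For each of the 12 motifs the intervals of the windows in WT only and in both lists overlapped. Base composition moved with these shares, and its part in them was not tested.

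**Figure D2:**
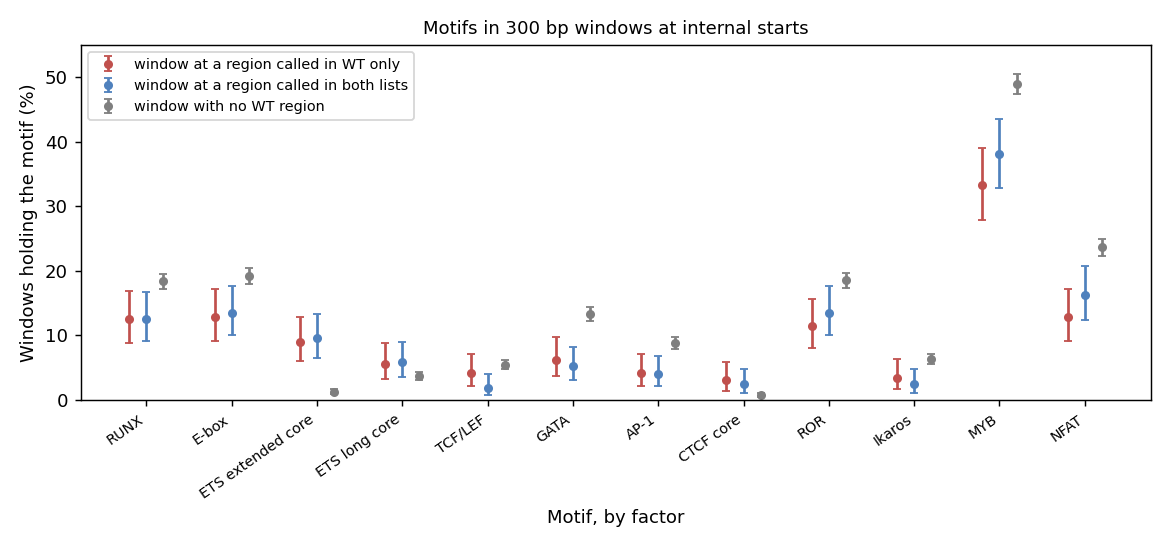
Share of start windows inside genes that hold each motif (y axis, percent; x axis, factor), for windows at a region called in WT only (289), at a region in both lists (326) and with no WT region (4058); bars are exact 95% intervals. The intervals of WT-only and shared windows overlap for each motif, though the TCF/LEF shares are 4.15% and 1.84%. For the extended ETS core both intervals lie above that of the uncalled windows. For the CTCF core both shares are higher than in the uncalled windows, but the interval of the shared windows overlaps the uncalled one.

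The regions in WT only were the weaker part of the regions inside genes. Of 4652 such WT regions, 62.9% had no KO region, where 53.8% of WT regions of all classes, 46.3% at gene ends and 61.0% between genes had none. These shares are what the rule selects on and are given as a description. Fold enrichment in WT only ran from 2.53 to 12.0 with a median of 5.64, and the regions in both lists had a median of 7.96. Summit reads had a median of 14 in WT only (quartiles 12 and 18) and 23 in both lists (18 and 32). Widths were 250 and 340 bp at the median, and the regions in WT only covered 815 kb. Regions in WT only between genes (1539, median fold 5.60) and at gene ends (3722, median 5.71) had nearly the same fold. Below a fold of 5, 89.4% (87.1 to 91.4) of the 847 internal WT regions had no KO region, and at 10 and above 40 of 455 had none (8.79%, 6.35 to 11.8).

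From the genome backgrounds of 1.37 reads in WT and 1.03 in KO, the relative depth of KO was 0.752. Scaled by this ratio the WT summit reads had a median of 10.5, while KO regions had from 7 reads upward with a lower quartile of 12 and a median of 15. In 2773 of the 2928 regions (94.7%) the scaled number reached 7, in 1192 (40.7%) it reached 12, and in 510 (17.4%) it reached 15. Among the 1724 internal regions in both lists, 1461 (84.7%) reached 12 and 1169 (67.8%) reached 15. With 1 list per group, depth and genotype cannot be told apart. Absence from the KO list means only that no region was called, and does not show a closed site.

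**Figure D3:**
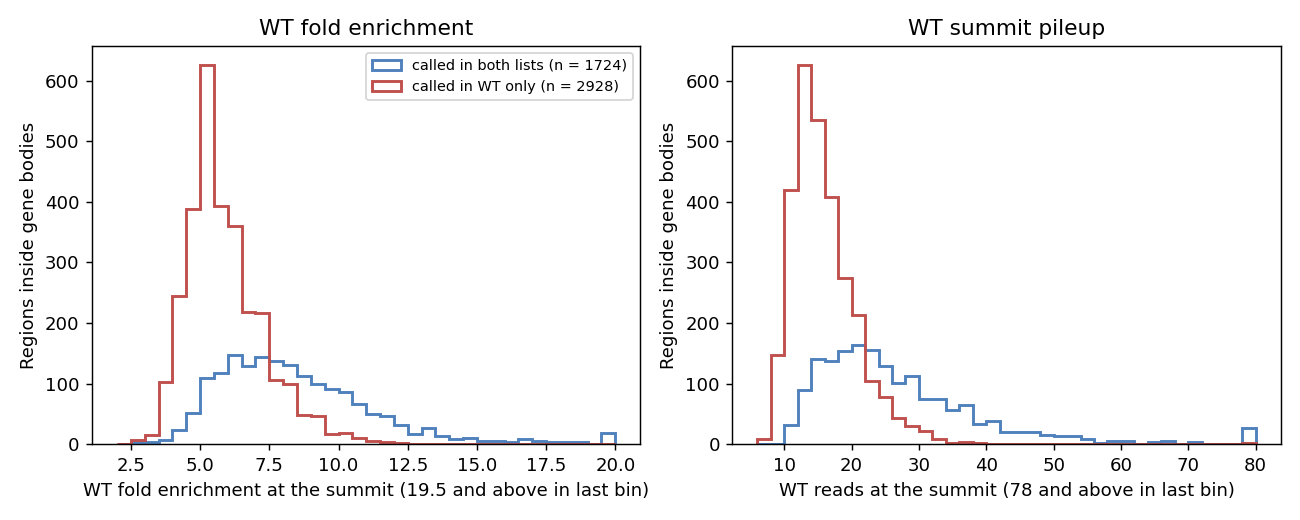
WT fold enrichment (left) and WT reads at the summit (right) on the x axes against the number of WT regions inside gene bodies on the y axes, for 2928 regions called in WT only and 1724 in both lists; the last bin holds all higher values. The WT-only regions gather around 5.64-fold and 14 reads, the shared regions around 7.96-fold and 23 reads with a long upper tail.

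At the upper end stood regions whose scaled reads lay above the KO median. The highest fold, 12.0, was inside Ankrd44 (chromosome 1, 54841754 to 54842164), a regulatory subunit gene of protein phosphatase 6, with 30 reads. A region inside Ext1, which encodes a heparan sulfate polymerase (chromosome 15, 53157202 to 53157659), had a fold of 12.0, 36 reads and the highest -log10 q of all, 28.0. Scaled to KO depth its reads came to 27.1, and the nearest KO region was 41.3 kb away. Armh3 (fold 11.6, 30 reads), Ahnak (11.5, 32 reads), which encodes a giant scaffold protein, and the zinc finger gene Zfp644 (11.4, 28 reads) followed beside Trp53bp1, Pak1 and Cntrl. Ncs1, a calcium sensor gene, had a fold of 11.1 with 36 reads, and Uvrag, an autophagy gene, 11.1 with 33 reads. Of these 10 regions the one inside Ahnak was closest to a KO region, at 6.85 kb, and the one inside Zfp644 farthest, at 499.9 kb.

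A few regions carried many reads over a high local background. In 11 the local background was over 4 times the genome background, and 5 of these lay inside Sfi1, which encodes a centrosomal protein. The highest was 33.0 reads at an Sfi1 region with 89 summit reads and a fold of 2.65. Outside Sfi1, a Tmem267 region had 80 reads over 28.3 and a fold of 2.76. In contrast 855 regions lay at the genome background itself. The widest region, 1005 bp inside Pxylp1, had a fold of 8.01 and 28 reads. The region farthest from any gene end, 522 kb, lay inside the neurexin gene Nrxn3 and had a fold of 6.35 with 15 reads.

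Some regions lay close to a limit of the rule. Just inside the limit of 1000 bp, a region in Srebf1 lay 1.01 kb from a gene end with a fold of 6.59, and just outside it a WT-only region in Elovl1 lay 0.998 kb away with a fold of 4.92. Closest to a KO region without touching it was a region in Smim10l1, at 0.023 kb with a fold of 5.20, and the smallest overlap that counted as shared was 15 bp, in Tmem267. The lowest -log10 q was 1.32, at a region in Zfp536 with 7 reads. Within 500 bp of a KO region lay 72 of the regions (2.46%) and within 10 kb 453 (15.5%), and the median distance was 48.2 kb. Another WT region of any kind lay within 10 kb for 921 regions (31.5%), a WT region called in both lists for 399 (13.6%), and another of the WT-only internal regions for 425 (14.5%).

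Protein-coding genes held 2610 of the regions, 25 of them in several such genes at once. The other 318 lay in genes of other kinds only, 289 of them in long noncoding RNA genes. The immunoglobulin heavy chain locus Igh held 11 (folds 5.19 to 8.01) beside 6 regions in both lists. The host protein-coding genes numbered 1946, of which 1495 held 1 region, 310 held 2, 141 held 3 or more and 23 held 5 or more. Of the hosts, 459 also held an internal region in both lists. That was 23.6% of the hosts and 35.7% of the 1285 genes with a region in both lists. Hosts were long, with a median of 69.2 kb against 17.1 kb over all protein-coding genes and 75.4 kb for genes with a region in both lists. The rule favours long genes, which hold more sequence away from their ends. Of the 21900 protein-coding genes, only 19304 held any such sequence. Regions per Mb of gene body were fewer in longer genes, from 4.24 under 10 kb and 4.12 in genes of 10 to 30 kb to 3.52 at 30 to 100 kb, 2.75 at 100 to 300 kb and 1.11 above 300 kb. Position along the gene was taken for only a part of the regions, 2074 in WT only and 1171 in both lists. With the gene cut into 5 equal stretches, 24.2% (22.4 to 26.1) of the 2074 lay in the stretch at the 5′ end and 338 (16.3%) in the one at the 3′ end. Regions in both lists went from 26.2% (23.7 to 28.8) to 14.1% (12.1 to 16.2). The median distance to the nearest gene end was 9.44 kb in WT only and 9.95 kb in both lists.

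Most host genes had no region at either end, as did most protein-coding genes over 10 kb. A KO region lay at an end of 474 of the 1946 hosts (24.4%, 22.5 to 26.3), and 312 (16.0%) had an end called in WT only. For 1160 hosts (59.6%, 57.4 to 61.8) no end was called in either list. Among genes with an internal region in both lists 60.0% had no called end, and among all 13961 protein-coding genes over 10 kb 58.3%. Among autosomes the share of internal WT regions with no KO region was lowest on chromosome 18 (55.4%, 47.0 to 63.6) and highest on chromosome 4 (70.5%, 64.9 to 75.8), and it was 63.1% (51.9 to 73.4) of 84 regions on chromosome X.

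The 10 genes with the most regions were 87.7 to 1485 kb long, all above the median host length of 69.2 kb. Mgat5, whose enzyme adds the N-glycan branches that restrain T cell receptor (TCR) clustering, held 8 regions in WT only and none in both lists. Their summit reads were 21, 20, 16, 11, 16, 13, 19 and 24 along the gene, and folds ran from 4.26 to 9.12. Each list had a region at an end of Mgat5. Pakap, which encodes paralemmin and A kinase anchor protein products, also held 8, with folds of 3.79 to 8.89, and 1 region in both lists. Itpkb encodes the inositol trisphosphate kinase needed for thymocyte selection. In its 94.4 kb it held 7, with 23, 24, 24, 18, 15, 17 and 16 reads, beside 1 in both lists, the highest density of the 10 leading genes at 75.7 per Mb. Vps13d, a lipid transfer protein gene, held 7 and none in both lists, with a highest fold of 10.1. Of its regions 2 also lay in Dhrs3. Nfia, a nuclear factor I gene, held 7 beside 4 in both lists. Ahnak held 6 and none in both lists. Magi2, a scaffold gene of 1485 kb, held 6 at 4.04 per Mb.

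**Figure D4:**
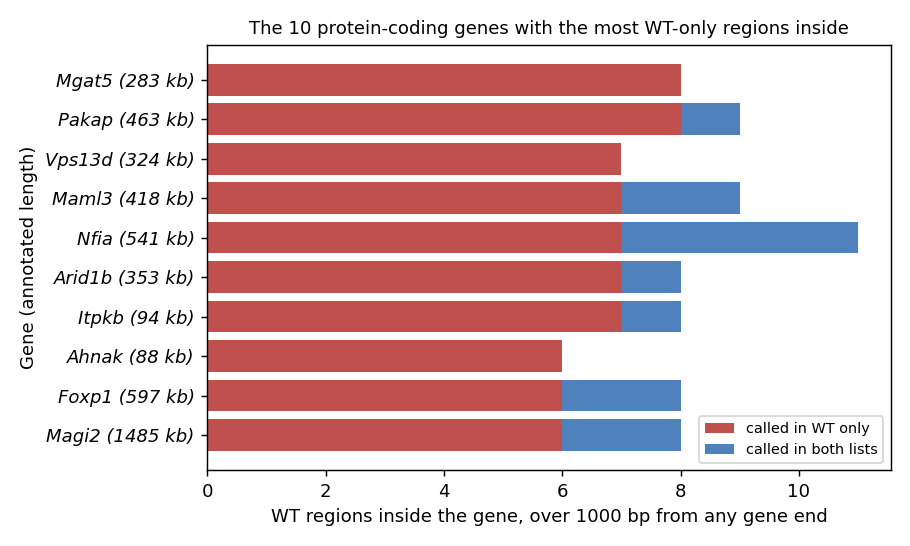
Number of WT regions inside each gene and over 1000 bp from any gene end (x axis) for the 10 protein-coding genes with the most regions called in WT only (y axis, with annotated length). Mgat5, Vps13d and Ahnak hold no region called in both lists, and Nfia holds 4.

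In Foxp1, though not in Maml3 or Arid1b, a WT-only region had more WT reads than every shared region of the gene. Foxp1 encodes a factor of T cell quiescence. It held 6 WT-only regions with 12, 11, 11, 13, 12 and 29 WT reads, and 2 regions in both lists with 16 and 13 reads in WT and 11 and 11 in KO. The region with 29 reads (chromosome 6, 99485126 to 99485462, fold 10.9) thus had more WT reads than either shared region, and no KO region lay within 90.0 kb. Maml3, a coactivator of Notch, held 7 with 13, 10, 17, 23, 13, 16 and 18 reads, and its 2 shared regions had 23 and 25 in WT and 14 and 16 in KO. In Arid1b, a subunit gene of the BAF chromatin remodelling complex, 7 regions had 20, 14, 14, 13, 22, 9 and 9 reads, all below the 27 of the shared region, which had 17 in KO.

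Gene lists of thymocyte biology, chosen with earlier results of these data known, differed widely in how densely the regions lay. All protein-coding genes together held 2.59 WT-only regions per Mb of gene body and 1.49 in both lists, and 63.4% of their internal WT regions (61.9 to 64.9) were in WT only. The median fold of their WT-only regions was 5.64. The densities below are counts over the length of the listed genes, a description with no test.

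Of 30 genes of the TCR complex and proximal signalling, 12 held 19 WT-only regions and 9 held 10 in both lists. The density was 8.82 per Mb, the median fold was 5.88 and 65.5% (45.7 to 82.1) of the internal regions were in WT only. Plcg1, the phospholipase that makes second messengers below the TCR, held 4 WT-only regions with 22, 18, 19 and 15 reads and none in both lists. Prkcq, a kinase of the TCR pathway, held 3 with 19, 24 and 16 reads beside a shared region with 37 in WT and 18 in KO. Fyn, a kinase at the TCR and SLAM receptors, held 3 with 20, 13 and 24 reads and no shared region. The Plcg1 region with 22 reads lay 1.96 kb from a KO region, and the Fyn region with 20 reads 1.75 kb. The highest fold of the list was the 9.54 of the Prkcq region with 24 reads (chromosome 2, 11187185 to 11187508). Skap1, an adaptor in TCR-driven adhesion, followed with 9.42 and 28 reads. The region in Cd28, the costimulatory receptor gene, had a fold of 7.35 with 19 reads. Lcp2, which encodes the adaptor SLP-76, held a WT-only region with 20 reads and a shared one with 25 in WT and 13 in KO. The WT-only Lcp2 region lay 0.636 kb from a KO region.

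Of 34 T lineage transcription factor genes, 17 held 38 WT-only regions and 10 held 17 in both lists. The density was 8.56 per Mb, the median fold was 5.06 and 69.1% (55.2 to 80.9) were in WT only. Beside Foxp1, Tox held 4, with 20, 19, 22 and 11 reads and folds of 4.90 to 5.96. Tox encodes a factor of CD4 lineage and natural killer T development. Bcl11b, which fixes T cell identity, held 3 with 15, 21 and 13 reads and no shared region. Lef1, a TCF family factor, held 3 with 14, 14 and 13 reads beside a shared region with 27 in WT and 17 in KO. Ets1 held 3 with 12, 16 and 19 reads beside a shared region with 23 and 12. Runx1, a factor of Cd4 silencing, held 3 with 17, 10 and 14 reads beside 3 shared regions with 15, 29 and 20 in WT and 12, 15 and 11 in KO. In Lef1 and Ets1 the shared region had the most reads. In Runx1 the WT-only and shared regions overlapped in reads. Bach2 (20 reads at the highest of 3), Nfkb1 (22 at the highest of 3) and Nfatc1 (14 and 24) held the other groups of 2 or more, and none of the 3 genes had an internal region in both lists. An Nfkb1 region with 18 reads lay 1.65 kb from a KO region.

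The coreceptor list held 8 WT-only and 7 shared regions, all of the former in Tox, Runx1 and Cd4. The WT-only Cd4 region had 14 reads and a fold of 5.86, and the shared Cd4 region had 18 reads in WT and 58 in KO with folds of 6.64 and 5.73. More reads at a lower fold mean a higher local background in KO than the 1.86 reads in WT. Only the KO mice carried Cd4-cre with its Cd4 regulatory sequence, and whether the transgene added reads here was not tested. The list of invariant natural killer T (iNKT) cell selection held 14 and 9 in its 20 matched genes, at a density of 8.44 per Mb. Its WT-only regions lay in Tox, Fyn, Bcl11b, Runx1 and Slamf1, the SLAM receptor gene, whose WT-only region had 13 reads and whose shared region had 29 in WT and 14 in KO. Of 21 Notch and progenitor genes, 6 held 13 WT-only regions, 9 of them in Maml3 and Maml2, with 12 regions in both lists. Maml2 held WT-only regions with 10 and 31 reads, 0.232 and 22.6 kb from the nearest KO region. Of 17 survival and death genes, 5 held 6, with Casp8 (9 and 11 reads) the only gene with 2, and the list had 9 in both lists. Bcl2l11, the gene of the pro-apoptotic BIM, had the highest fold of the survival list, 6.74 with 23 reads. The V(D)J recombination list held 5, with 15 and 16 reads at Dntt, which encodes the terminal transferase, and the list's highest fold at Trp53bp1.

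Of 27 regulators of actin and small GTPases, 12 held 29 WT-only regions at 6.08 per Mb with a median fold of 6.39, beside 13 in both lists. Fyb, which encodes the TCR adaptor ADAP, held 4 with 15, 24, 19 and 16 reads, none shared, and no KO region lay within 1078 kb. Elmo1, a partner of Dock2 in Rac activation, held 4 with 20, 24, 15 and 9 reads and none shared. Tiam1, a Rac activator, held 4 with 16, 26, 19 and 21 reads beside shared regions with 25 in WT and 16 in KO and with 50 and 27. Sipa1l1 also held 4, Wipf1 held 3, and Dock10, Rapgef1 and Arhgef1 held 2 each. The Tiam1 region with 26 reads lay 0.695 kb from a KO region, and a Sipa1l1 region with 14 reads 0.651 kb. The highest fold was in Dock10, 8.53 with 21 reads. The migration list held 4, of which Ccr4 was the strongest.

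Chromatin genes were mixed. Among 26 remodeller genes, 5 held 15 WT-only regions at 5.29 per Mb, 7 in Arid1b, 4 in Arid1a (17, 12, 12 and 13 reads, none shared) and 2 in Chd9. A Chd9 region had 37 reads, a fold of 8.84 and a -log10 q of 22.4 (chromosome 8, 90908172 to 90908829), and its reads were the most of any WT-only region in the listed genes. Among 55 genes of histone and DNA modifying enzymes, 17 held 22 at 4.40 per Mb. Hdac4, Kdm6b, Dnmt3a, Hdac9 and Jarid2 held 2 each, and the highest fold was at the demethylase gene Kdm2a (9.43, 22 reads). Jarid2, a Polycomb cofactor gene, had WT-only regions with 23 and 21 reads and a shared region with 93 in WT and 91 in KO. In the list of 19 histone chaperone genes, CAF-1 included, Hira, the chaperone of histone H3.3, held the only WT-only region (fold 4.78, 14 reads) beside a shared region with 13 reads in WT and 12 in KO. Chaf1b held no internal WT region, and each list had a region at an end of the gene. The replication list held 3, in Top2b (14 and 12 reads) and Mcm2 (14 reads). The damage response list held 1, at Trp53bp1, and the ubiquitin ligase list 3, led by Rc3h2 (fold 5.48).

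Lists of other lineages held 1 to 3 WT-only regions each. By density the short gene sets of stromal (6.78 per Mb), myeloid (4.00) and erythroid (3.77) markers lay above the 2.59 of all protein-coding genes, on 2, 1 and 1 regions. The B cell (2.09) and natural killer (1.23) lists lay below it. The B cell list had 2 WT-only regions, in Ebf1 (fold 6.45) and Blk, and 1 shared. The myeloid list had 1, in Itgam (4.96), the erythroid list 1, in Klf1 (9.33, 27 reads), the natural killer list 1, in Rora (6.25), and the stromal list 2, in Pecam1 (5.97 and 5.19). Over 29.0 Mb of 20 long neural genes there were 3 (0.103 per Mb), of which 2 lay in Nrxn3, and 6 in both lists. Protein-coding genes above 300 kb had 1.11 WT-only regions per Mb. The muscle, liver and pancreas list held 1 in 3.82 Mb, in Actn2 (5.48).

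**Figure D5:**
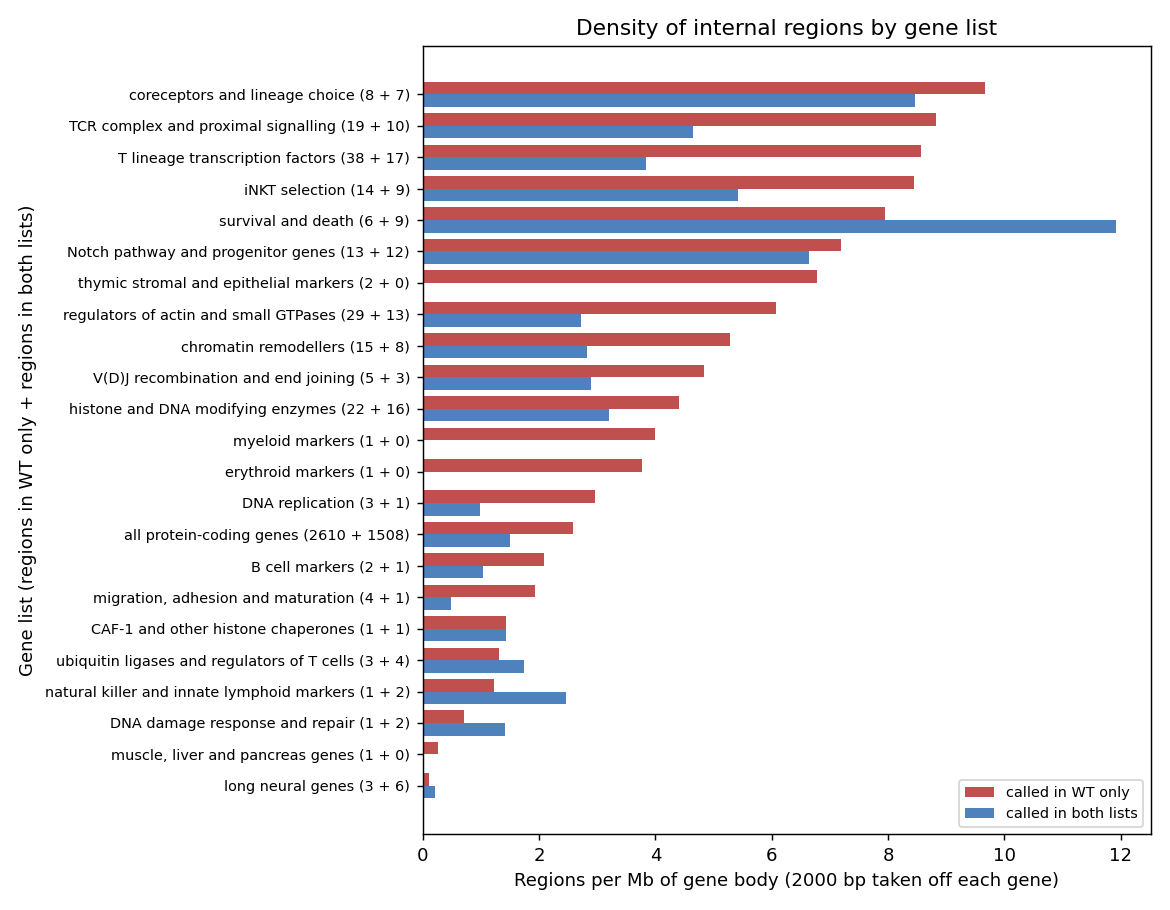
WT regions inside gene bodies per Mb (x axis) for each gene list (y axis), called in WT only and in both lists, with the region counts in parentheses. The lists of coreceptors, TCR signalling, T lineage factors and iNKT selection stand highest in WT only, between 8.44 and 9.67 per Mb. All protein-coding genes have 2.59 and long neural genes 0.103. For regions called in both lists the leading gene lists, in that order, have 8.46, 4.64, 3.83 and 5.43 per Mb against 1.49. Densities are not adjusted for gene length, and protein-coding genes above 300 kb have 1.11 in WT only. Lists that share genes share regions.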

How the data were processed

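Accessible regions of 4 samples, 2 WT and 2 KO, were deposited as 1 list per group, each made from both replicates, so p-values between groups and paired analyses were not possible. The peak caller MACS2 2.1.4, the aligner Bowtie2 and the build mm10 are named, per the submitters' processing notes, beside deepTools 3.4.1, Trim Galore, FastQC, GATK and Picard. Their settings, any shift for the transposase cut and any removal of duplicates are not given in the sources used here. The deposited values of a region are a score (the whole part of 10 times the -log10 q), the summit's fold enrichment, and its -log10 p and -log10 q. The deposited summit lists were not used.

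Summit reads and local background were solved from the deposited fold and -log10 p with MACS2's formulas, and 100% of reads came out whole within 0.05. The most frequent background was taken as the relative depth. Sequencing totals were not used here. Shared means an overlap of at least 1 bp. Gene positions and start windows came from RefSeq tables of GRCm38.p6, the assembly behind mm10. No genome was used here, so the planned motif counts around summits were replaced by counts in start windows, and 1892 of 1892 overlapping opposite-strand windows were reverse complements. The 56 WT regions on sequence without genes in the table counted as between genes. Density divides regions by gene length less 1000 bp at each end. Of the listed symbols all matched a protein-coding gene but Ighm and Mir181a-1. Intervals are exact Clopper-Pearson 95% intervals and cover counting error only.

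The regions named are the 10 of highest fold, the regions of the 10 genes with the most (predicted genes skipped), listed genes with 2 or more or with the highest fold, extremes of width, background and distance, regions at each limit, and Chaf1b. Skap1, Cd28, Lcp2, Cd4, Slamf1, Mcm2, Blk, Jmjd1c, Atxn7 and the genes whose sequences are printed fall outside this rule unless it also names them, and were chosen after their values were seen. Regions, lists and sequences were chosen with earlier results of these data known. The solver, the overlap and the classes were tested on simulated data. Alternatives varied the q threshold, the gene end window, the overlap rule, the gene table and the chromosomes. Tools were scipy 1.17.1, pandas 2.3.3 and numpy 2.4.6 under Python 3.11.15, and matplotlib 3.10.9 for plots. Results for a few listed genes are not reported here.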

Additional observations from a re-analysis of the deposited data

How the results depend on the processing

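No paired analysis was possible because the lists combine the replicates of a group, and for the same reason no replicate could be left out. Of 60 values of 6 results under 10 alternatives, 48 stayed within 1.5 times (counts) or within the 95% interval (shares and the median fold). Where WT regions needed a -log10 q of 10 the regions fell to 599, the share of internal WT regions with no KO region to 33.3%, the hosts to 489, the share of hosts with a KO region at an end to 22.3%, and the regions in listed genes from 168 to 37, while the median fold was 7.66. These alternatives keep fewer, stronger regions. Where they needed 5 the share with no KO region was 56.0% and the median fold 6.18. The share was 61.4% when a KO region within 500 bp counted as shared, 66.3% when at least 50% of the WT region had to be covered, and 64.9% without regions at internal starts, an alternative added after the data were seen, like leaving out high local background. With the gene end window doubled the share of hosts with a KO region at an end was 27.4%. Of 220 counts by gene list 191 stayed within 1.5 times, and 25 of the 29 that did not were under a q threshold. The weakest regions had 7 summit reads, and the part of depth in their calls was not tested.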
